A study of Mus musculus with 7 samples.

Results

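The Gimap genes encode GTPases of immunity-associated proteins, a family of GTP-binding proteins found mainly in lymphocytes. The 8 mouse members, Gimap1, Gimap3, Gimap4, Gimap5, Gimap6, Gimap7, Gimap8 and Gimap9, were chosen by symbol, and all 8 were present among the 56422 gene symbols of the expression table. They had been singled out as a group because their levels differed between the treated and control libraries, so that difference is described here and not tested. In the treated libraries the 8 genes together averaged 887 ± 597 TPM (SD, n = 3), against 116 ± 28.6 TPM in the controls (SD, n = 4). Each of the 8 was higher in every treated library than in every control library. TPM is a level per transcript length, expressed relative to all transcripts of a library, so it sets genes beside each other but carries no read counts.

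Gimap proteins bind GTP through a domain related to that of the septins, and several sit on internal membranes such as those of the endoplasmic reticulum, lysosomes and mitochondria. They are best known for keeping resting lymphocytes alive: rodents that lack Gimap5 lose most peripheral T cells, and Gimap1 is required for mature T and B cells. Gimap3 and Gimap5 have been reported to bind proteins of the BCL2 family, and Gimap6 to bind Gabarapl2, a protein of the Atg8 family that acts in autophagy. In the mouse the genes lie side by side on chromosome 6.

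The study sequenced polyadenylated RNA, with a stranded kit, from samples labelled as mouse CD8+ T cells, the cytotoxic lymphocytes, taken from the ascites of models of peritoneal metastasis. The control group held 4 libraries with no treatment and the treated group 3 libraries with propionate and butyrate, which are short-chain fatty acids that bacteria release when they ferment fibre. Both groups shared the ascites setting, and the labels used here give no strain, age, dose, time, tumour line or sorting marker for either. They also do not say whether the libraries came from separate animals, so p-values here reflect the spread among these libraries alone, and that spread may be technical. The treated library without a usable number in the table is called the third treated library.

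The label was checked against marker genes before the Gimap values were read. Genes that define T cells were present in every library, but so were those of other cells. Cd8a, which encodes the alpha chain of CD8, was at 7.95 to 17.98 TPM in the controls and at 54.25 to 242.23 TPM in the treated libraries. Apoe, abundant in macrophages, was at 3741 to 8468 TPM in the controls and at 1417 to 2316 TPM in the treated libraries. It had the largest fall of the 12 macrophage and monocyte markers read below, which did not all fall. Mitochondrially encoded genes took 13.6% to 18.2% of TPM in 6 libraries and 32.9% in the third treated library, and 13914 to 14949 genes reached a TPM of 1 per library. Read depth is unknown, because TPM carries no counts.

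The sequences just upstream of the Gimap genes are shown first, because the members moved together across the libraries. RefSeq promoter windows (build GRCm38.p6) of 300 bases, from 250 before to 50 after the annotated start, were matched by symbol for all 8 members, with 2 windows for Gimap8. The windows of the 3 members with the highest levels are printed 5′ to 3′ on the gene's strand, in lower case with motif matches in capitals. Gimap4 is at chr6:48684328-48684627 on the plus strand, Gimap6 at chr6:48708195-48708494 on the minus strand, and Gimap3 at chr6:48770802-48771101 on the minus strand.
Gimap4: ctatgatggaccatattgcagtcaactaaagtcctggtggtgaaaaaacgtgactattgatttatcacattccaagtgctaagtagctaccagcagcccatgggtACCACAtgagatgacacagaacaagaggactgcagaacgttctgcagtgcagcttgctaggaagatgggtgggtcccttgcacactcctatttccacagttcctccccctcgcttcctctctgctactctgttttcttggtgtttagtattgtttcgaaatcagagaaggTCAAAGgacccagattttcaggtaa
Gimap6: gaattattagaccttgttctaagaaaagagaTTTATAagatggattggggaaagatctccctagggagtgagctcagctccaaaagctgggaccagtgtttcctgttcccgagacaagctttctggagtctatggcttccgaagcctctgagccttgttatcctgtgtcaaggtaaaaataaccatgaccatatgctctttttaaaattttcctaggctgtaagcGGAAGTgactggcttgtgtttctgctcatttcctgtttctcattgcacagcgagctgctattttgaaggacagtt
Gimap3: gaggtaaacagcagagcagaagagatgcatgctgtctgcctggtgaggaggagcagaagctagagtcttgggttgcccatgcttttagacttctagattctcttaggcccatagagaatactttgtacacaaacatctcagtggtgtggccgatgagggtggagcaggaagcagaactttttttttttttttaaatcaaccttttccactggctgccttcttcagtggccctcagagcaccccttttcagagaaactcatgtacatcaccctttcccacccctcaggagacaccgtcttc
The words searched, on both strands, were GGAAGT, a core bound by ETS factors, TGTGGT, a core bound by RUNX factors, CTTTGA, a core bound by TCF and LEF factors, and TATAAA, the TATA box. In the Gimap4 window the capitals mark a RUNX word and a TCF/LEF word, both on the opposite strand. In the Gimap6 window they mark a TATA word on the opposite strand and an ETS word, and the Gimap3 window holds none of the 4.

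Over the 9 Gimap windows, the ETS word was in 4 (those of Gimap1, Gimap5, Gimap6 and Gimap9), against 23.8% of all 32851 windows of the same length. The RUNX word was in 3 (Gimap1, Gimap4 and Gimap7), against 16.8%. The TCF/LEF word was in 2 (Gimap4 and Gimap7), against 16.0%. The TATA word was in 1 (Gimap6), against 13.6%. No word was shared by all 8 genes. The windows held 2 to 8 CpG pairs, beside a median of 7 over all windows. A match describes the letters only and is not a binding site.

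Gimap4, Gimap6 and Gimap3 were the most abundant members. Gimap4, which has been linked to lymphocyte death, was at 35.24, 24.45, 35.08 and 49.74 TPM in controls 1 to 4. In the treated libraries it was at 204.88 TPM in treated 1, 446.17 TPM in treated 2 and 108.03 TPM in the third. The lowest treated value thus lay above the highest control value, with control 4 the highest control and treated 2 far above the other treated libraries. The group means were 36.1 ± 10.4 TPM (SD, n = 4) and 253 ± 174 TPM (SD, n = 3), a difference of 2.58 (SE 0.36) in mean log2(TPM + 1). On that scale, used for all differences here, the change of low genes is understated.

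Gimap6, the reported partner of Gabarapl2, was at 18.97, 18.15, 26.14 and 31.32 TPM in controls 1 to 4, and at 175.6, 355.69 and 92.44 TPM in treated 1, treated 2 and the third treated library. Its log2 difference, 2.91 (SE 0.35), was the highest of the 8, and the groups did not overlap. Gimap3, a close relative of Gimap5, was at 20.74, 17.24, 21.06 and 29.16 TPM in the controls and at 154.67, 312.13 and 71.75 TPM in the treated libraries. Control 4 was again the highest control and control 2 the lowest for both genes. The log2 difference of Gimap3 was 2.75 (SE 0.36).

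The other 5 members formed a lower tier. Gimap7, whose GTPase activity has been reported to depend on pairing of its GTP-binding domains, was at 7.69, 6.81, 7.16 and 8.3 TPM in controls 1 to 4 and at 37.66, 101.87 and 25.07 TPM in treated 1, treated 2 and the third. It had the tightest controls of the family, 7.49 ± 0.65 TPM (SD, n = 4), and a log2 difference of 2.47 (SE 0.34). Gimap8, a long member with more than one GTP-binding domain, was at 6.87, 4.17, 7.22 and 9.82 TPM in the controls and at 48.29, 91.81 and 23.32 TPM in the treated libraries. Again treated 2 was highest and the third treated library lowest within its group, and the log2 difference was 2.63 (SE 0.36).

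Gimap5, the member whose loss depletes T cells, was at 4.91, 6.73, 8.99 and 8.26 TPM in controls 1 to 4 and at 43.8, 90.17 and 22.05 TPM in treated 1, treated 2 and the third. It was the 1 member whose highest control was control 3 and whose lowest was control 1. Its log2 difference was 2.50 (SE 0.36). Gimap9, the least characterised of the set, was at 4.9, 3.31, 4.48 and 8.82 TPM in the controls and at 41.05, 75.68 and 15.39 TPM in the treated libraries. Here the groups came closest, the lowest treated value being 1.74 times the highest control value, and the log2 difference was 2.63 (SE 0.41). Gimap1, needed for mature lymphocytes, was at 6.4, 5.66, 7.88 and 9.01 TPM in the controls and at 34.78, 69.42 and 17.91 TPM in the treated libraries. It had the lowest log2 difference of the 8, 2.16 (SE 0.34).

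Across the family, the median log2 difference was 2.60, beside -0.24 over the 14967 genes that reached 1 TPM in at least 3 of the 7 libraries. All 8 members passed that filter. Without the third treated library the family median was 3.10, and without control 3 it was 2.59. In 8 of 8 members no treated library overlapped a control library, which over all tested genes was so for 4.82% in the treated-higher direction. Nothing is read from that contrast, since it was used to choose the genes.

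**Figure D1:**
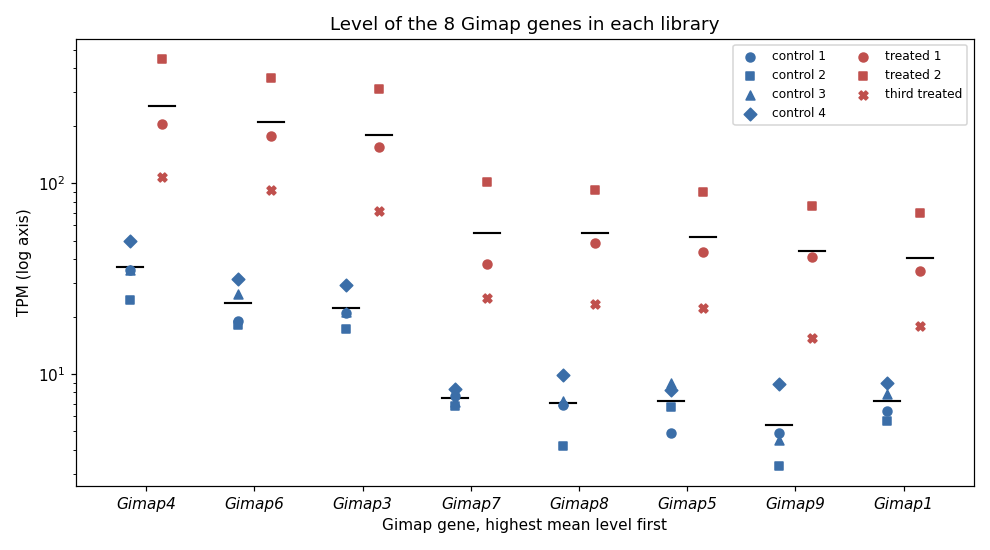
TPM of each Gimap gene (log axis) in the 4 control libraries (blue) and 3 treated libraries (red), 1 point per library, with black lines at the group means. Treated 2 (red squares) is the highest and the third treated library (red crosses) the lowest treated point for all 8 genes, and every red point lies above every blue point of the same gene.

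The libraries were ordered alike for nearly every member. Treated 2 was the highest, treated 1 next and the third treated library the lowest of the treated group for 8 of 8 genes, and treated 2 exceeded the third by 3.85 times (Gimap6) to 4.92 times (Gimap9). Among the controls, control 4 was highest for 7 of 8 genes and control 2 lowest for 7 of 8. The control range was narrower: the highest control was 1.22 times the lowest for Gimap7 and 2.66 times for Gimap9. The family sum was at 105.72, 86.52, 118.01 and 154.43 TPM in controls 1 to 4, and at 740.73, 1542.94 and 375.96 TPM in treated 1, treated 2 and the third.

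The order of levels among the members could be read because TPM is per length. By mean level over the 7 libraries Gimap4 (129 TPM) came first, above Gimap6 (103 TPM) in 7 of 7 libraries. Gimap6 was above Gimap3 (89.5 TPM) in 6 of 7, and Gimap3 was above Gimap7 (27.8 TPM) in 7 of 7, so the 3 leading genes were set apart from the rest. Below that step neighbours changed places: Gimap7 exceeded Gimap8 (27.4 TPM) in 4 of 7 libraries, Gimap8 exceeded Gimap5 (26.4 TPM) in 5 and Gimap5 exceeded Gimap9 (21.9 TPM) in 6. Gimap9 exceeded Gimap1 (21.6 TPM) in only 2 of 7, its mean resting on treated 1 and treated 2.

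The shares of the family sum overlapped between the groups for 6 of the 8 members. Gimap1 held 5.83% to 6.68% of the sum in the controls and 4.50% to 4.76% in the treated libraries. Gimap6 held more in the treated libraries, 23.1% to 24.6%, against 17.9% to 22.2% in the controls. Gimap4 held the highest mean share in both groups, at 30.9% ± 2.31 (SD, n = 4) in the controls and 28.4% ± 0.68 (SD, n = 3) in the treated libraries.

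The table gave 30 transcript rows for the 8 genes, as many per gene as GENCODE release M21 lists. Of these rows, 23 were higher in every treated library than in every control library and 7 were not, 5 of the 7 never reaching 5 TPM. No share over all transcript rows was computed beside this count. The contrast was also used to choose the genes, so nothing is read from it. The leading row held 73.97% to 77.1% of Gimap4 in the treated libraries and 76.6% to 83.1% in the controls. For Gimap3 the leading row held 72.7% to 74.5% and 74.4% to 78.8%, and for Gimap7 92.3% to 97.8% and 88.3% to 100%, in the same order.

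Shares of a gene's TPM did not overlap between the groups in 6 of the 30 rows, which belonged to Gimap4, Gimap6, Gimap7 and Gimap8. How often this occurs over all transcript rows was not computed, so the count is description only. The leading Gimap6 row held 78.5% to 86.5% of the gene in the controls and 66.3% to 72.3% in the treated libraries, without overlap. Its row 4 by level was listed at 0 in all 4 controls and at 6.91, 13.89 and 4.93 TPM in treated 1, treated 2 and the third. An estimate listed at 0 can be a failed one, so no fold is given. Row 3 of Gimap4 held 3.97% to 4.64% of the gene in the controls and 6.71% to 9.04% in the treated libraries, and row 2 of Gimap7 held 0% to 1.08% and 2.15% to 4.02%. Row 2 of Gimap8 was at 0.45, 0.82, 2.45 and 3 TPM in the controls and at 19.33, 33.33 and 9.29 TPM in the treated libraries. Its share of the gene was 6.55% to 33.9% in the controls and 36.3% to 40.03% in the treated libraries, while the leading row of Gimap8 overlapped, at 58.9% to 66.7% and 50.3% to 59.8%. Row 3 of Gimap8, at 0.34 to 2.32 TPM and 0.1 to 3.78 TPM, overlapped between the groups. The rows carry no identifiers, so which splice form each is cannot be given.

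**Figure D2:**
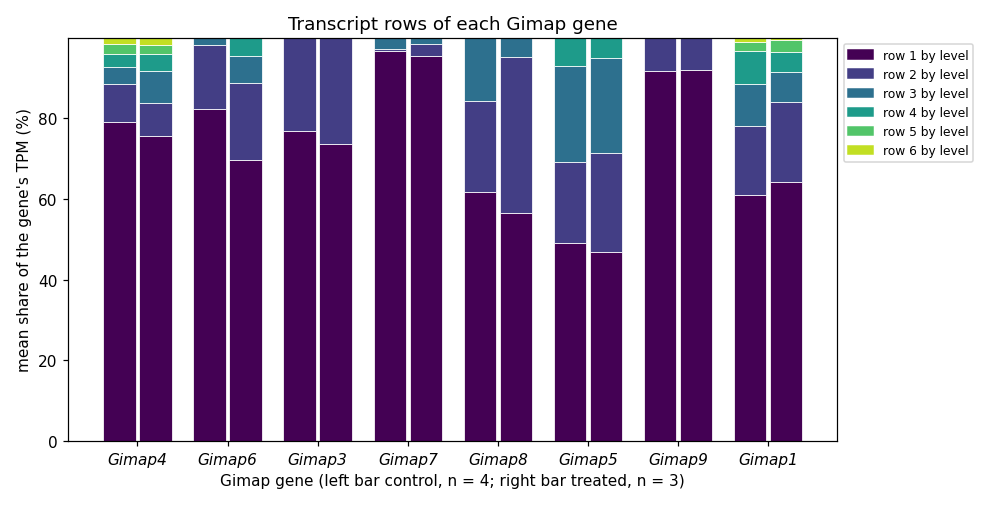
Mean share (%) of each Gimap gene's TPM in its transcript rows, ordered by level, with the left bar of each pair for the 4 controls and the right bar for the 3 treated libraries. The leading row (darkest) is smaller in the treated bar for Gimap6, where a row 4 appears, and row 2 is larger in the treated bar for Gimap8.

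Reads can be shared between members where their sequences are the same. Of all 50-base stretches of the GENCODE transcripts, Gimap3 and Gimap5 had 190 in common, which is 7.52% of those of Gimap3 and 4.53% of those of Gimap5, and no other pair of members shared any. Reads within those stretches may not be assigned to 1 gene, and how far this shifts the levels of Gimap3 and Gimap5 was not measured. The members were compared only with each other, not with other genes. Gimap1os, an antisense transcript at Gimap1 with 3 rows, had its main row at 0.66, 0.85, 0.78 and 1.32 TPM in controls 1 to 4 and at 6.37, 14.41 and 3.11 TPM in treated 1, treated 2 and the third. This is the library order of Gimap1 itself within the treated group. No source used here says whether strand was used in the authors' quantification, so reads of Gimap1 and Gimap1os cannot be told apart.

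T cell genes were also higher in the treated libraries. A list of 18 T cell identity genes (the CD3 chains, Cd8a, Cd8b1, Lck, Zap70 and others) summed to 212.17, 235.56, 160.12 and 283.5 TPM in controls 1 to 4 and to 1499, 3337 and 787 TPM in treated 1, treated 2 and the third. All 18 were called higher by limma at a Benjamini-Hochberg adjusted p under 0.05, which over all 14967 tested genes was so for 4.3%. Their median log2 difference was 2.83, beside 2.60 for the Gimap genes. In bulk samples, fewer T cells and less RNA per T cell cannot be told apart.

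Set against that T cell sum, the Gimap values of the 2 groups overlapped. The family sum was 49.8%, 36.7%, 73.7% and 54.5% of the T cell sum in controls 1 to 4, and 49.4%, 46.2% and 47.8% in treated 1, treated 2 and the third. The treated values lay inside the control range, with group values of 53.7% ± 15.3 (SD, n = 4) and 47.8% ± 1.60 (SD, n = 3), and the 3 treated libraries were much closer to each other than the 4 controls. The difference of -5.86 percentage points, treated minus control, was smaller than the spread between controls. Without control 3, which had the lowest T cell sum, it was 0.81 percentage points. In that library Cd3e, a CD3 chain, was at 5.47 TPM, against 11.61 to 13.07 TPM in the other controls.

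**Figure D3:**
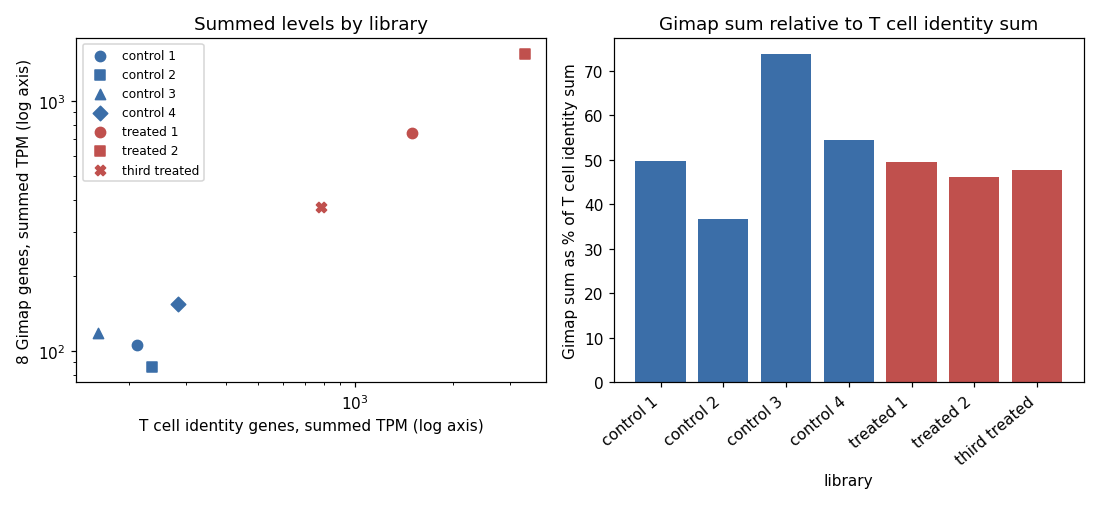
Left, the summed TPM of the 8 Gimap genes against that of 18 T cell identity genes (both log axes), 1 point per library, with controls in blue and treated libraries in red; right, the first sum as a percentage of the second in each library. The treated bars stand at 46.2% to 49.4%, inside the control range of 36.7% to 73.7%.

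Gimap genes are also expressed by B cells, natural killer cells and endothelium, so markers of those cells were read beside them. The summed B cell markers were at 155.69, 104.54, 329.31 and 270.07 TPM in controls 1 to 4 and at 243.63, 354.98 and 241.62 TPM in the treated libraries, with overlap between groups (two-sided exact permutation test, p = 0.4, adjusted 0.444 over 10 marker lists). None of the 11 tested B cell genes was called by limma, beside 11.9% of all tested genes. An unadjusted p under 0.05 was found for 0 of the 11, beside 30.5% of all tested genes. Nothing is read from either count, and the 11 log2 differences ran from 0.22 to 0.61. Within the controls, the B cell sum was highest in control 3 and control 4, the libraries with the highest Gimap sums. Its part in the control values of the Gimap genes was not tested.

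The natural killer list summed to 2.86 to 4.73 TPM in the controls and 7.34 to 27.75 TPM in the treated libraries (two-sided exact permutation test, p = 0.0286, the smallest that 35 splits can give, adjusted 0.0476). Of its 6 genes 2 passed the level filter, and both, the lectin receptors Klra7 and Klra9, were called higher (limma adjusted p 0.0115 and 0.00994), beside 4.3% of all tested genes. Klra9 was at 0.41 to 0.76 TPM in the controls and 1.96 to 6.35 TPM in the treated libraries. It thus passed the filter through the treated libraries alone, and nothing is read from its call. Such receptors are also carried by some CD8+ T cells. Ncr1, which defines natural killer cells, did not exceed 1.12 TPM in any library. The CD4 and regulatory T cell list summed to 7.71 to 11.44 TPM in the controls and 13.12 to 29.76 TPM in the treated libraries (exact permutation p = 0.0286, adjusted 0.0476). Of its 5 genes, 3 were tested and 1, Tnfrsf18, was called higher, beside the same 4.3%. Tnfrsf18 averaged 13.74 TPM of the mean sum of 20.7 TPM in the treated libraries. Cd4 itself did not exceed 2.16 TPM in any library and was not called (limma adjusted p 0.25). Foxp3, named after its values were seen, did not exceed 0.7 TPM. The part of either list in the Gimap values was not tested.

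The summed endothelial markers moved the opposite way from the Gimap genes, at 100.63 to 114.68 TPM in the controls and 49.11 to 93.63 TPM in the treated libraries (exact permutation p = 0.0286, adjusted 0.0476). In the controls Esam alone averaged 68.8 TPM of the mean sum of 105.5 TPM. Of 12 genes 5 were tested and 3, Flt1, Esam and Plvap, were called lower, beside 7.59% of all tested genes. Plvap, at 0.15 to 0.28 TPM in the treated libraries, passed the level filter through controls alone, so nothing is read from its call. The defining endothelial gene Cdh5 did not exceed 0.23 TPM in any library. Not every gene of the list fell. Pecam1 was at 12.67 to 14.95 TPM in the controls and 8.76 to 21.32 TPM in the treated libraries, with means of 13.8 and 15.7 TPM. Marker sums were also lower in the treated libraries for macrophages and monocytes (8583 ± 4269 TPM, SD, n = 4, to 3850 ± 408 TPM, SD, n = 3), for epithelium and mesothelium (2373 ± 241 to 1130.5 ± 384 TPM) and for fibroblasts (299 ± 16.7 to 155 ± 62.2 TPM), each with an exact permutation p of 0.0286, adjusted 0.0476. In the controls Apoe alone averaged 5056 TPM of the macrophage and monocyte sum. Of the 12 genes of that list, all tested, 0 were called higher and 2 lower, beside 4.3% and 7.59% of all tested genes. Their log2 differences ran from -1.45 (Apoe) to 0.49. Of 9 tested epithelial and mesothelial genes 8 were called lower, and of 5 tested fibroblast genes 4, beside the same 7.59%. The part of these cells in the Gimap values was not tested. Scaled by the median of ratios, none of these 6 marker sums kept its call: 5 had the same exact permutation p of 0.0286, adjusted 0.0571, and macrophages and monocytes had 0.114, adjusted 0.163. The log2 differences of the natural killer and CD4 lists were then 1.80 and 1.20, against 1.59 and 0.97 without that scaling.

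Genes of the protein families that Gimap members are reported to bind were read next. Of 11 BCL2 family regulators, all tested, 2 were called higher and 0 lower, beside calls for 11.9% of all tested genes. That count is near the background and is no result about the family. The median log2 difference was -0.13, beside -0.24 over all tested genes. Bcl2, the survival protein of resting lymphocytes, was at 8.92, 7.13, 9 and 12.57 TPM in controls 1 to 4 and at 29.55, 32.84 and 12.94 TPM in the treated libraries (log2 difference 1.25, SE 0.29, limma adjusted p 0.0137). The third treated library was barely above control 4. Pmaip1, which promotes cell death, rose by 1.28 (SE 0.37, limma adjusted p 0.0385), with control 3 at 15.62 TPM inside the treated range of 11.21 to 25.92 TPM. Bcl2l1 and Bad, with log2 differences of -0.63 each, did not pass (limma adjusted p 0.0525 and 0.0577), nor did Mcl1 (0.11), Bcl2a1b (0.17), Bcl2l11 (0.39), Bax (-0.45), Bak1 (-0.33), Bid (-0.13) and Bbc3 (-0.49). The Bcl2 call was lost without treated 1 (limma adjusted p 0.0539). That of Pmaip1 was lost without control 2 (0.0664), treated 2 (0.0858) or the third treated library (0.169). It was also lost with limma's robust option (0.157), with median-of-ratios scaling (0.058) and with scaling without mitochondrially encoded genes (0.0509), while the list's count was 3 under each of these. Over all tested genes 2106 of 14967, 2301 of 14964 and 2747 of 15487 were called there.

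Of 16 genes of the Atg8 family and its conjugation machinery, 0 were called higher and 1 lower by limma, beside 4.3% and 7.59% of all tested genes. An unadjusted p under 0.05 was found for 3 of the 16, beside 30.5% of all tested genes. Nothing is read from either count. The median log2 difference was -0.32. Gabarapl2, the reported Gimap6 partner, was at 123.58 to 171.84 TPM in the controls and 73.22 to 122.26 TPM in the treated libraries, a log2 difference of -0.47 that did not pass (limma adjusted p 0.166). It was named for that link to Gimap6, after its values were seen. Map1lc3a, an Atg8 protein, fell by 0.69 (SE 0.21, limma adjusted p 0.0497), a call lost without any single control (0.0694 to 0.152), without treated 2 (0.124) or without the third treated library (0.102). It was also lost at pseudocounts of 0.1 (0.0548) and 5 (0.0526) and with median-of-ratios scaling (0.0854). Gabarap and Gabarapl1 had log2 differences of -0.52 each and did not pass (limma adjusted p 0.094 and 0.122).

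Resting and recirculating lymphocytes are the cells in which Gimap proteins are known to act. Of 17 genes of that state 9 were called higher and 1 lower, beside 4.3% and 7.59% of all tested genes. Their median log2 difference was 1.20, beside 2.83 for the 18 T cell identity genes. The part of T cell content in these rises was not tested. Il7r, the receptor for the survival cytokine interleukin 7, was at 3.69, 4.31, 4.9 and 9.09 TPM in controls 1 to 4 and at 59.47, 92.82 and 19.77 TPM in treated 1, treated 2 and the third (log2 difference 2.98, SE 0.40, limma adjusted p 0.000588). Its library order within the treated group was that of the Gimap genes. Satb1, a chromatin organiser of T cells, and Lef1, a transcription factor of naive T cells, rose by 2.60 (limma adjusted p 0.000933) and 2.81 (0.00107). Tob1, a repressor of proliferation named after its values were seen, fell by 0.67 (limma adjusted p 0.0429). That call was lost without any single control (0.0926 to 0.114) or without treated 2 (0.113).

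Other GTPase families were read for contrast. Of 20 small GTPases and regulators of lymphocytes 12 were called higher and 0 lower, beside 4.3% and 7.59% of all tested genes. Their median log2 difference was 1.10, also below the 2.83 of the T cell identity genes. Rasal3, a Ras inhibitor of T cells, was at 7.43 to 11.52 TPM in the controls and 25.58 to 97.87 TPM in the treated libraries, a log2 difference of 2.25 (limma adjusted p 0.000918). Rasgrp1, a Ras activator, and Arhgap15, a Rac inhibitor, rose by 1.88 (limma adjusted p 0.00189) and 1.76 (0.00243). Without treated 2, 7 of the 20 were called, beside 964 of all 14967 tested genes.

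Septins are relatives of the Gimap GTPase domain, and the interferon-inducible GTPases are another family of immune GTPases. Of 13 septins 10 were tested, 2 were called higher and 0 lower, beside 11.9% of all tested genes called either way, and the median log2 difference was -0.04. Septin1, a septin of lymphocytes, was at 20.58 to 35.58 TPM in the controls and 55.89 to 194.17 TPM in the treated libraries (log2 difference 1.80, limma adjusted p 0.00289). Septin4 rose by 1.18 (limma adjusted p 0.035), a call lost without treated 2 (0.139), without the third treated library (0.059) or at a pseudocount of 5 (0.052). Septin8 had a log2 difference of -0.60 and did not pass (limma adjusted p 0.071). Without treated 1, 4 of the 10 tested septins were called, beside 3434 of all 14967 tested genes. Of 19 interferon-inducible GTPases 1, Gvin1, was called higher (18.0 to 45.3 TPM on average, log2 difference 1.24, limma adjusted p 0.0158), and 0 lower. Gbp4 (0.94) and Gbp10 (0.79) did not pass. Gvin1 was not called without treated 2 (0.0554), and 2 genes of the list were called without control 1 or without the third treated library. Over all 14967 tested genes these last 2 settings called 1287 and 1479. The median was 0.22. With so few calls, nothing is read from either count.

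**Figure D4:**
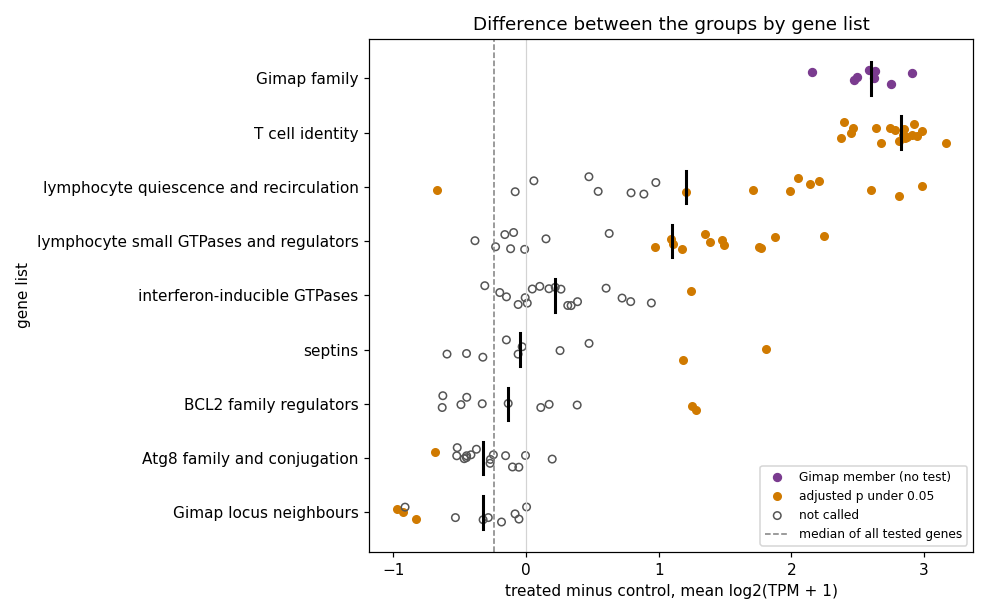
Difference in mean log2(TPM + 1), treated minus control, for each tested gene of 9 lists, with black bars at the list medians and a dashed line at the median of all tested genes (-0.24). Gimap members (purple, not tested) lie between 2.16 and 2.91, beside the T cell identity genes, and the called genes of the other lists are orange.

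In the RefSeq order along chromosome 6 the Gimap genes run Gimap8, Gimap9, Gimap4, Gimap6, Gimap7, Gimap1, Gimap5 and Gimap3. Of the 10 protein-coding genes on either side, 17 of 20 were in the table and 11 reached the level filter, of which 0 were called higher and 3 lower by limma, beside 4.3% and 7.59% of all tested genes. An unadjusted p under 0.05 was found for 5 of the 11, beside 30.5% of all tested genes. In 6 of the 11 every treated library lay below every control library, which was so for 25.7% of all tested genes. The median log2 difference of the 11 was -0.32.

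Zfp775, a zinc finger gene next to Gimap8, was at 0.9 to 2.18 TPM in the controls and 0.97 to 1.75 TPM in the treated libraries (log2 difference 0.00, SE 0.25, limma adjusted p 0.993). On the other side Tmem176b and Tmem176a, membrane proteins of myeloid cells, lie next to Gimap3. Tmem176b was at 555.58 to 726.74 TPM in the controls and 273.42 to 467.9 TPM in the treated libraries, and fell by 0.93 (SE 0.23, limma adjusted p 0.0185). Tmem176a fell by 0.97 (SE 0.21, limma adjusted p 0.00768). Rarres2, which encodes the chemoattractant chemerin, fell by 0.83 (SE 0.23, limma adjusted p 0.0312). Group means of the macrophage and mesothelial marker sums were also lower in the treated libraries. Control 3 had the highest macrophage and monocyte sum of the controls (14962 TPM). In it Tmem176b was at 723.81 TPM, Tmem176a at 336.19 TPM and Rarres2 at 165.36 TPM. The highest controls of these genes were at 726.74, 341.4 and 211.89 TPM. Within the treated group that sum was 4054, 3380 and 4117 TPM in treated 1, treated 2 and the third. In the same order Tmem176b was at 467.9, 306.21 and 273.42 TPM, and Tmem176a at 213.24, 142.7 and 141.76 TPM. Rarres2 was at 146.2, 88.57 and 78.12 TPM, and the epithelial and mesothelial sum at 1564, 995 and 833 TPM. The part of those cells in these changes was not tested.

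By the highest transcript row in place of the sum, the log2 difference of Tmem176a was -0.61 and its call was lost (limma adjusted p 0.0773). In that setting 2 neighbours were called, beside 1653 of 14560 tested genes. The Tmem176b call was lost without control 2 (0.053), treated 2 (0.0622) or the third treated library (0.0528). The Rarres2 call was lost without control 2 (0.084), control 4 (0.059), treated 2 (0.0963) or the third treated library (0.0889), and with median-of-ratios scaling (0.0545). Without treated 2 or without the third treated library 1 neighbour was called, beside 964 and 1479 of all 14967 tested genes. The remaining tested neighbours did not pass: Gpnmb (-0.91), Atp6v0e2 (-0.53), Zfp467 (-0.32), Zfp746 (-0.28), Krba1 (-0.18), Malsu1 (-0.08) and Lrrc61 (-0.05).

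**Figure D5:**
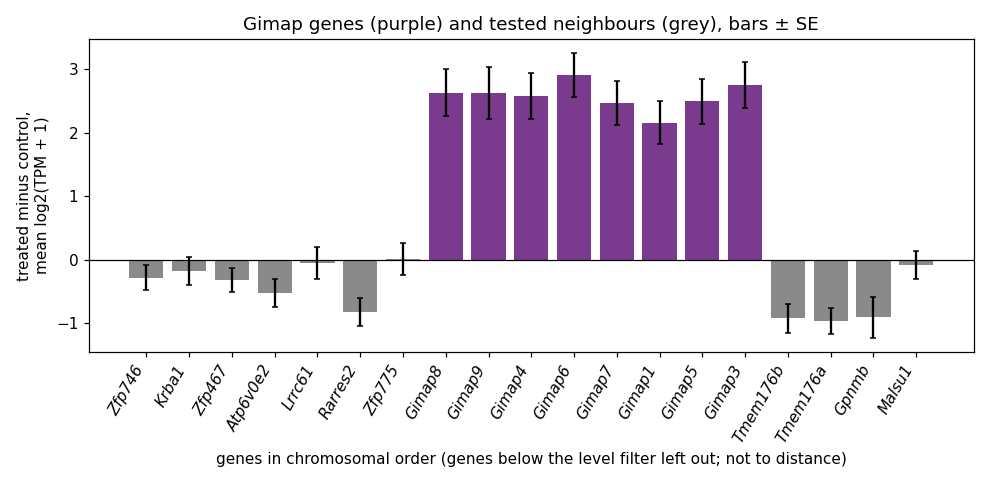
Difference in mean log2(TPM + 1), treated minus control, with bars of 1 SE, for the 8 Gimap genes (purple, not tested) and the 11 tested neighbours (grey) in chromosomal order, not to distance. The purple bars stand at 2.16 to 2.91, and the grey bars reach no higher than 0.00.

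The genes whose profile over the 7 libraries was most like that of the family were found by the root mean square difference, in log2 units, between centred log2(TPM + 1) profiles. Among 12262 candidate genes the median difference was 1.49. The candidates left out the members, predicted genes, mitochondrially encoded genes, immunoglobulin genes and T cell receptor genes, constant chains included. The 10 nearest were Ifi214 (0.09), Ptpn22 (0.12), Ipcef1 (0.13), P2ry10 (0.14), Il18r1 (0.15), Grap2 (0.16), Ifi208 (0.16), Ikzf3 (0.17), Cyfip2 (0.18) and Cd5 (0.18). Ptpn22 and Grap2 are signalling proteins downstream of the T cell receptor, P2ry10 is a receptor of lymphocytes, Ikzf3 is a lymphocyte transcription factor and Cd5 is a T and B cell surface protein. Ifi214, the nearest, was on none of the gene lists used here, and of the 10 only Cd5 was. Cd8a (0.41) and Cd3e (0.46) lay farther from the family profile than these 10. All of these genes share the 7 libraries and the same difference between groups with the members.

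The members themselves lay between 0.09 (Gimap4) and 0.22 (Gimap1) from their common profile. Gimap3 (0.10) and Gimap8 (0.12) followed it closely, while Gimap5 (0.21), Gimap7 (0.20), Gimap9 (0.19) and Gimap6 (0.18) departed more. Ptpn22, the second nearest outside gene, was at 9.12, 7.4, 9.17 and 10.19 TPM in controls 1 to 4 and at 57.83, 132 and 32.02 TPM in treated 1, treated 2 and the third, the same order of libraries within the treated group as all 8 Gimap genes.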

How the data were processed

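One deposited file held TPM for 149132 transcripts in 7 libraries. The submitters' processing notes list StringTie, HISAT2, fastp and build mm39, with no versions and no statement of which program computed the deposited TPM. TPM was summed per gene symbol (56422 symbols), leaving out 1001 rows without a symbol (0.307% to 0.618% of TPM). The column of the third treated library matched its group but no sample number. Genes at TPM 1 or more in at least 3 libraries (14967) were compared on log2(TPM + 1) with limma 3.58.1 in R 4.3.3, with an intensity trend and Benjamini-Hochberg adjustment over all of them, and called at an adjusted p under 0.05. Sums of 10 marker lists were tested by exact two-sided permutation of the 7 libraries (35 splits).

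The members and lists were chosen with earlier results of these data known. All 8 members were named, with the 3 smallest p-values of each other list, all tested BCL2 family genes and neighbours, the 10 nearest profiles and some reference genes; exceptions are marked. Promoter windows came from RefSeq (GRCm38.p6) and transcripts from GENCODE M21; no coordinates in mm39 were used. On simulated data of this comparison (14967 genes, 40 changed per size) the model called 42.5%, 100% and 100% of genes raised by a log2 of 1, 2 and 3, and found 35% and 92.5% at decreases of 1 and 2. Among 14767 unchanged genes 8 were called. The simulated noise was independent between genes, with the same spread in both groups. In these libraries the Gimap genes moved together and spread more in the treated group, so these rates may not carry over. Alternatives changed the pseudocount, filter, scaling, variance model, library weights, transcript summing and replicate block, and left out each library in turn.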

Additional observations from a re-analysis of the deposited data

Results flagged for a closer look

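The summed macrophage and monocyte markers were at 6993 TPM in control 1, 6218 TPM in control 2, 14962 TPM in control 3 and 6160 TPM in control 4. The gap from control 3 to the nearest control was 0.905 of the whole range, above Dixon's critical value for 4 samples. It was the 1 such result among 22 quantities checked in the controls, where chance gives about 1 in 20. No Gimap gene met the criterion, and control 3 was the highest control for Gimap5 only.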

How the results depend on the processing

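All 8 Gimap genes stayed higher in the treated group under the 18 alternatives, with log2 differences from 1.68 (Gimap1) to 3.68 (Gimap6). The family median of 2.60 became 3.35 with library weights and ranged from 2.08 to 3.10 with 1 library left out. The labels share the numbers 1 and 2 between groups without saying that they pair samples, and deviations correlated at -0.02 and -0.09 within the numbers. With a replicate block on those 4 libraries the family median was 3.36, 712 genes were called, and the counts were 1 for BCL2 family genes, 0 for Atg8 genes, 1 for septins, 0 for interferon-inducible GTPases and 0 for neighbours. The same 4 libraries without the block, an alternative added after seeing the data, gave 3.36, 613, 1, 0, 1, 0 and 0. The number on the column of the third treated library matches no sample of its group, so that library did not enter the block.

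Among all tested genes, 1779 were called (643 higher, 1136 lower). Without the filter on low levels 7 of 29687 genes were called (6003 at an unadjusted p under 0.05), and 0 in each of the 7 lists counted (BCL2, Atg8, quiescence, septins, interferon-inducible, small GTPases, neighbours). The cause was not tested. Without mitochondrially encoded genes in the scaling 2747 were called, and with library weights 6467. Median-of-ratios scaling moved the median of all genes by 0.22 and gave 1292 higher and 1009 lower. Leaving out 1 library gave 964 (without treated 2) to 3434 (without treated 1), with 1123 without control 2.

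Calls over the whole table moved too and stand beside the list counts below, from which nothing is read. Of 14967 tested genes 1685 and 1649 were called at pseudocounts of 0.1 and 5, and 6467 with weights. The highest transcript row gave 1653 of 14560, and a TPM minimum of 5 gave 1575 of 11044. Median of ratios gave 2301 of 14964, and scaling without mitochondrial genes 2747 of 15487. Leaving out 1 library gave 964 to 3434 of 14967. Atg8 calls were 0 at pseudocounts 0.1 and 5, 2 without mitochondrial genes, 7 with weights and 0 to 3 with 1 library left out. Septin calls were 1 at a pseudocount of 5, 1 with a TPM minimum of 5, 4 without mitochondrial genes, 6 with weights, 1 by the highest transcript row and 1 to 4 with 1 library left out. Interferon-inducible GTPase calls were 2 with a TPM minimum of 5, 3 by median of ratios, 2 without mitochondrial genes, 10 with weights and 0 to 2 with 1 library left out. BCL2 family calls were 6 with weights, 5 by the highest transcript row and 1 to 3 with 1 library left out. Neighbour calls were 6 with weights and 1 to 4 with 1 library left out, quiescence calls 9 to 13 and small GTPase calls 7 to 13.

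By median of ratios the log2 differences of marker sums no longer called were 1.20 (CD4 and regulatory T cells), 1.80 (natural killer cells), -0.36 (endothelium), -0.80 (macrophages and monocytes), -0.86 (epithelium and mesothelium) and -0.76 (fibroblasts). Dendritic cells turned to 0.037 and neutrophils to 0.25, and neutrophils to 0.11 without mitochondrial genes and 0.092 by the highest row, none of them called. The family share of the T cell sum differed by -11.5 to 0.81 percentage points with 1 library left out. With 1 library left out the exact test cannot reach 0.05. The depth is unknown, so low levels have no counting error.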
